A study of Mus musculus with 2 samples.

Results

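The genes described here encode the proteins of the mitochondrial ribosome, in LSK cells of mouse bone marrow. Members were the genes whose name on the array begins with Mrpl or Mrps followed by a digit. These were 75 of 27595 gene names on the array, carried by 125 probes. The L genes, 46 in all, are named for the large subunit of the ribosome and the S genes, 29 in all, for the small subunit.

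LSK cells are marrow cells without markers of mature blood lineages but with Sca-1 and c-Kit on their surface, and they include the stem and multipotent progenitor cells of the blood. The study compared PAD4-deficient LSK cells with wild-type (WT) LSK cells, both sorted by flow cytometry from mice of the strain C57BL/6, with 1 array for each genotype and 300 ng of RNA per labelling. PAD4, the product of Padi4, converts arginine in histones and other proteins to citrulline. The sources used here do not give how the gene was inactivated, how many mice gave the RNA, or their sex and age.

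The mitochondrial ribosome translates the few messenger RNAs of mitochondrial DNA, all of which encode subunits of the respiratory chain and ATP synthase. Its ribosomal RNAs come from mitochondrial DNA, but every one of its proteins is encoded in the nucleus, made in the cytosol and imported. It descends from a bacterial ribosome, so that many of its proteins have a bacterial counterpart, while others exist only in mitochondria. Loss of mitochondrial translation impairs respiration, and blood stem cells are known to be sensitive to the state of their mitochondria.

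Promoter sequences are shown first, because the members are separate genes on many chromosomes whose promoters share some motifs. They come from RefSeq (build GRCm38.p6) and give the 250 bases before the start site, 5′ to 3′ on the strand of the gene. Capitals mark matches, on either strand, to CCGGAAG (the core bound by ETS factors such as GABP), GCGCA, any 1 base and GCGC (NRF1), AAGATGG (YY1), CACGTG (the E-box of MYC and MAX) or TATAAA (the TATA box). These promoters and motifs were chosen after the values were seen. GABP, NRF1 and YY1 are known regulators of nuclear genes for mitochondria. Mrpl36 (chr13:73330759-73331008, plus strand) had the largest positive difference between the genotypes, and Mrps27 (chr13:99344536-99344785, plus strand) and Mrpl9 (chr3:94443086-94443335, plus strand) the largest negative ones. Mrpl51 (chr6:125191950-125192199, plus strand) and Mrpl17 (chr7:105811088-105811337, minus strand) are shown as members with the ETS core and a difference of 0.26 each, although a second, dim probe of Mrpl17 gave -0.24. Mrps11 (chr7:78782881-78783130, plus strand) is shown because Mrpl46 starts next to it on the opposite strand.
Mrpl36: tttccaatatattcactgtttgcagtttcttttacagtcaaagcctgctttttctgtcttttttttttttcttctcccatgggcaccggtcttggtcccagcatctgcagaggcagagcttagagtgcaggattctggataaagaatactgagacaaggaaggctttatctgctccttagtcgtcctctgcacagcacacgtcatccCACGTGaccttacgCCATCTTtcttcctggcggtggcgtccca
Mrpl51: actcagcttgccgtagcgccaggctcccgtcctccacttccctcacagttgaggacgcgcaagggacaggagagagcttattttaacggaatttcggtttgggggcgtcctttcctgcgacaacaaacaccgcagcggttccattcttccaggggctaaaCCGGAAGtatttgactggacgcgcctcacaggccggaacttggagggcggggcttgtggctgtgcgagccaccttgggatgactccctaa
Mrpl17: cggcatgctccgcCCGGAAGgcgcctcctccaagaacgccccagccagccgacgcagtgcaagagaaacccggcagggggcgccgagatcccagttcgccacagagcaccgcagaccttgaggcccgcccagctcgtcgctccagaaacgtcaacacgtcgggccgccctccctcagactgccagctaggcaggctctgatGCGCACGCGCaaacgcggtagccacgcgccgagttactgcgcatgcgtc
Mrps27: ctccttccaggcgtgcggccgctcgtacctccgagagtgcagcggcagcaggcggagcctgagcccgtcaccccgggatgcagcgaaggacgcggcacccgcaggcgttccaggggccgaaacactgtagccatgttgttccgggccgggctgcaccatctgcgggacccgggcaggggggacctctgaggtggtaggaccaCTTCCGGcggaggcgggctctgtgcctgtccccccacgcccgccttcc
Mrpl9: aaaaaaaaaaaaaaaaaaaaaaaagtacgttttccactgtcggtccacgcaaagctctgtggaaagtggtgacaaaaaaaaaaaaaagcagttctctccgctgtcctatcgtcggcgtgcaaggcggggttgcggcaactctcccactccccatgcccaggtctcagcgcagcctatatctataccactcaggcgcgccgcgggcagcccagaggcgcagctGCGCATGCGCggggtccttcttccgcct
Mrps11: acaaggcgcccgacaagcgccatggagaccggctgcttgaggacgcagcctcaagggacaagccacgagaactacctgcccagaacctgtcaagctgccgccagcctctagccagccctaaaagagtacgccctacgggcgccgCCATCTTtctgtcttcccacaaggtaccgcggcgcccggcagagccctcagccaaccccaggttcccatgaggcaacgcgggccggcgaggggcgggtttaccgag

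Of the 75 genes, 66 were in the promoter table, with 72 windows of 300 bases (250 before and 50 after the start). The ETS core was in 24 of the 72 windows, or 33.3%, against 8.86% of all 32851 windows and 11.6% of the windows of protein-coding genes. The NRF1 motif was in 16.7% of the windows of the members and in 4.60% of all windows. The YY1 motif was in 16.7% of the windows of the members and in 6.34% of all windows. For the E-box the shares were 9.72% of the windows of the members and 7.15% of all windows, and for the TATA box 6.94% of the windows of the members and 13.6% of all windows. At least 1 of the ETS, NRF1 and YY1 motifs was found in 40 of the 66 genes and in 55.6% of their windows, against 18.0% of all windows and 21.7% of protein-coding windows. The share was 52.7% for cytosolic ribosomal protein genes and 54.8% for respiratory chain genes. Only 1 pair of matches in these windows overlapped. Cytosolic ribosomal protein genes had the ETS core in 35.1% of 74 windows and respiratory chain genes in 23.3% of 73. The genes with the ETS core had a median difference between the genotypes of 0.14 on the log2 scale and those without it 0.13. For NRF1 the medians were 0.12 with and 0.14 without the motif, and for YY1 0.10 with and 0.14 without. For the E-box they were 0.13 with and 0.13 without, and for the TATA box 0.18 with and 0.13 without. Only 5 of the 66 genes had the E-box and only 5 the TATA box. The ETS core was in 24 genes, the NRF1 motif in 12 and the YY1 motif in 12. None of these splits was tested. A match is a run of letters and does not show that a factor binds there.

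All 75 genes were measured, that is, each had at least 1 probe that the scanner software called well above background on the PAD4-deficient and on the WT array. Each gene was read from its brightest such probe, as log2 of the processed signal relative to the 75th percentile of the array, and the difference was PAD4-deficient minus WT. Of the 125 probes, 118 were measured on both arrays, 3 were well above background on 1 array only, 3 on neither, and 1 was left out as an outlier spot. None of the 75 chosen probes was saturated. The processed signals (linear intensity units) of the chosen probes ran from 427.8 to 39535 with a median of 5084 on the PAD4-deficient array, and from 455.4 to 36329 with a median of 4557 on the WT array. The median over all 17019 measured genes was 706.9 on the PAD4-deficient array and 724.0 on the WT array. These signals describe the brightness of probes, and are not ranked as levels of different genes.

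Most of the genes had a slightly higher signal on the PAD4-deficient array. The difference was above 0 for 66 of 75 genes (88.0%), against 55% of all measured genes. With arrays scaled on their median instead, it was above 0 for 60 members and 43.6% of all genes. The median was 0.14 on the log2 scale, a signal 9.98% higher, against 0.02 for all measured genes. The quartiles were 0.09 and 0.22, and the whole range was -0.21 to 0.39. With 1 array per genotype there was no test and no replicate check. The error given by the scanner software, propagated over both arrays, was about 0.20 for each gene and covers the reading of a spot, not the spread between mice. Per the file headers it includes a fixed share of the signal, and it was nearly the same for all members. The difference was larger than this error in the positive direction for 23 genes (30.7%), against 16.1% of all measured genes, and in the negative direction for 1 gene, Mrps27, against 14.1%.

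No single gene stood far out. Counts past a fixed fold were near or below those of the array as a whole. A difference of at least 1.2-fold was seen for 8 genes on the higher side (10.7%), against 12.3% of all measured genes, and for 0 genes on the lower side, against 11.1%. A difference of at least 1.5-fold was seen for 0 genes in either direction, against 2.88% of all measured genes higher and 1.87% lower. None reached 2-fold, against 1.01% of all measured genes higher and 0.476% lower. The SD over the 75 genes was 0.11, against 0.31 over all measured genes. The members therefore lay closer together than measured genes as a whole.

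**Figure D1:**
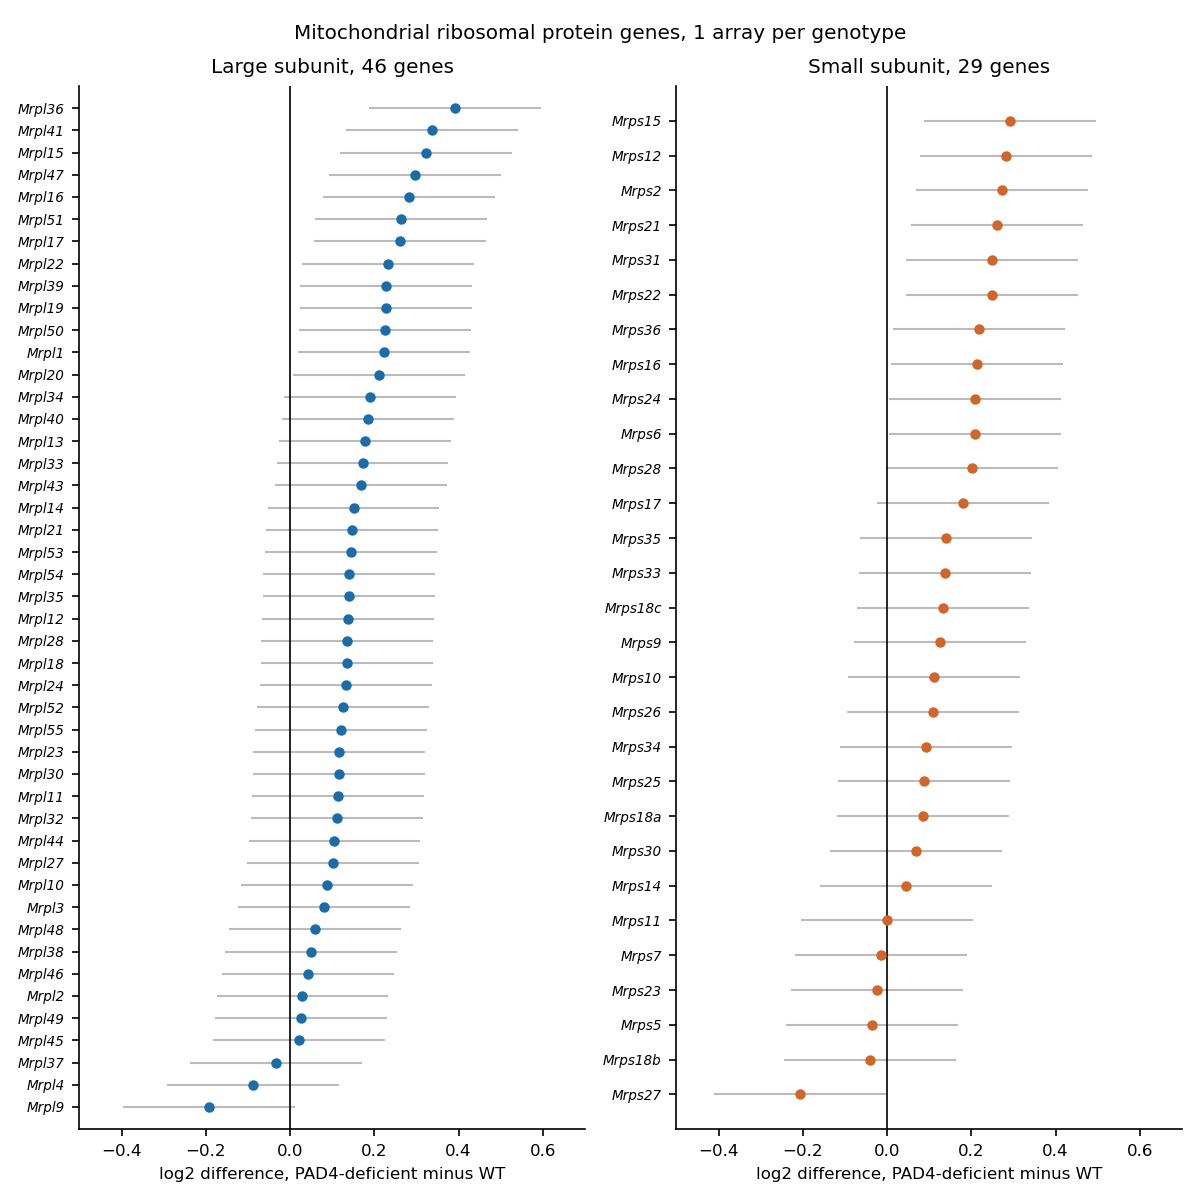
Log2 difference between the PAD4-deficient and the WT array (x axis) for each of the 46 large subunit genes (left) and 29 small subunit genes (right), sorted by difference. Points are the brightest probe, bars the scanner error propagated over both arrays (about 0.20); 66 of the 75 points lie above 0 and most bars reach across 0.

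The large subunit carries the peptidyl transferase centre and the exit tunnel of the nascent chain. Its 46 genes had a median difference of 0.14, with 43 above 0 and 3 below. At least 1.2-fold higher were 5 (10.9%), against 12.3% of all measured genes. The 29 small subunit genes, whose products hold the messenger RNA and the decoding site, had a median of 0.13, with 23 above 0 and 6 below. Of these 29, 3 (10.3%) were at least 1.2-fold higher. The medians of the subunits thus lay within 0.01 of each other. Structures of the mammalian mitochondrial ribosome place the products of Mrps18a and Mrps30 in the large subunit, and that of Mrps36 has been assigned to a metabolic enzyme complex. Their differences were 0.09 for Mrps18a, 0.07 for Mrps30 and 0.22 for Mrps36.

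Among large subunit genes, Mrpl36 had the largest difference. Its product is the mitochondrial counterpart of the smallest protein of the bacterial large subunit. Its probe lies at mm8 chromosome 13, 73798069 to 73798128. The PAD4-deficient array gave a signal of 9003 there and the WT array 7102. The difference was 0.39 with an error of 0.20, 1.31-fold, from its only probe. Mrpl41, a protein specific to mitochondria, had signals of 7258 on the PAD4-deficient array and 5945 on the WT array at mm8 chromosome 2, 24796185 to 24796244. The difference was 0.34, 1.26-fold, and its second probe was well above background on neither array. Both differences were larger than the scanner error.

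Mrpl15, Mrpl47 and Mrpl16 came next in the large subunit. Mrpl15, a core protein that binds the large ribosomal RNA, had signals of 1013 on the PAD4-deficient and 838.2 on the WT array, a difference of 0.32. Mrpl47, which lies near the exit of the tunnel, had signals of 1364 on the PAD4-deficient and 1150 on the WT array, a difference of 0.30. Its second measured probe gave 0.02, and its remaining probe was well above background on the WT array only, so the size rests on the brightest probe. Mrpl16, whose bacterial counterpart lies close to the peptidyl transferase centre, had signals of 6294 on the PAD4-deficient and 5357 on the WT array, a difference of 0.28.

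The large subunit genes of the stalk, where translation factors bind, were all above 0 but within the scanner error. Mrpl12 had signals of 16214 on the PAD4-deficient and 15248 on the WT array, a difference of 0.14. Mrpl11 differed by 0.11 and Mrpl10 by 0.09. Mrpl45, which anchors the ribosome to the inner mitochondrial membrane, had signals of 6928 on the PAD4-deficient and 7071 on the WT array. Its normalised difference was 0.02, since the 75th percentile used for scaling was 786.5 on the PAD4-deficient and 814.2 on the WT array.

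The 5 members with the brightest probes were Mrpl33, Mrpl28, Mrpl23, Mrps33 and Mrpl14. Their differences lay in a narrow band, at 0.17 for Mrpl33, 0.13 for Mrpl28, 0.12 for Mrpl23, 0.14 for Mrps33 and 0.15 for Mrpl14. Mrpl33 had signals of 39535 on the PAD4-deficient and 36329 on the WT array.

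In the small subunit, Mrps15, Mrps12 and Mrps2 had the largest positive differences. Mrps15, a protein that binds the small ribosomal RNA, had signals of 5821 on the PAD4-deficient and 4920 on the WT array. The difference was 0.29, with 0.07 at its second probe. Mrps12, part of the decoding centre, had signals of 9766 on the PAD4-deficient and 8307 on the WT array at mm8 chromosome 7, 28448578 to 28448637, a difference of 0.28. Mrps2 had signals of 2058 on the PAD4-deficient and 1764 on the WT array, a difference of 0.27. Its other probes were dimmer and gave values down to -0.10, so Mrps2 was higher at its brightest probe but not at every probe.

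The lowest values belonged to Mrps27 and Mrpl9. Mrps27, a protein with the repeats of RNA-binding pentatricopeptide proteins, had signals of 859.7 on the PAD4-deficient and 1028 on the WT array. Its probe (mm8 chromosome 13, 100515234 to 100515293) gave a difference of -0.21, or 86.6% of the WT signal, just beyond its error of 0.20. Mrpl9 had signals of 1159 on the PAD4-deficient and 1371 on the WT array (mm8 chromosome 3, 94532073 to 94532132), a difference of -0.19, within its error. Mrpl4, whose bacterial counterpart lines the exit tunnel, had signals of 1803 on the PAD4-deficient and 1985 on the WT array, a difference of -0.09.

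The other 6 of the 9 genes below 0 lay within 0.05 of it. They were Mrps18b at -0.04, Mrps5 at -0.04, Mrpl37 at -0.03, Mrps23 at -0.02, Mrps7 at -0.01 and Mrps11 at -0.0007. Mrps18b was the dimmest member, with signals of 427.8 on the PAD4-deficient and 455.4 on the WT array. Mrps5 and Mrps7 are counterparts of bacterial proteins of the small subunit. Other measured probes of Mrps5 gave -0.04, 0.13 and 0.14, that of Mrps7 0.15, that of Mrps23 0.06 and that of Mrps18b 0.18. The 0.14 of Mrps5 came from a dim probe, with signals of 45.4 on the PAD4-deficient and 42.6 on the WT array. The 0.18 of Mrps18b also came from a dim probe, with 66.7 on the PAD4-deficient and 60.9 on the WT array.

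Genes for proteins with a bacterial counterpart and for those found only in mitochondria had close medians. Their shares past 1.2-fold depended on the cutoff and on the choice of probe. The 44 genes with a counterpart had a median of 0.14. A positive difference was seen in 39 of them (88.6%), and 7 (15.9%) reached 1.2-fold on the higher side. The 25 genes specific to mitochondria had a median of 0.13. A positive difference was seen in 22 of these (88%), and 1 (4%) reached 1.2-fold. Across the array the shares were 55% for a positive difference and 12.3% for 1.2-fold. Mrpl51, specific to mitochondria, narrowly missed the 1.2-fold cutoff, at 0.2629 against 0.2630. With the mean over probes, Mrpl47, Mrps15 and Mrps2, which have a counterpart, fell below the cutoff, at 0.16, 0.18 and 0.07. Mrpl41, the 1 gene past it in the second class, kept 0.34. Past the scanner error on the positive side lay 36.4% of the first class and 24% of the second, against 16.1% across the array. The other 6 members were placed in neither class and had a median of 0.10. When the classes were split by subunit, the highest median, 0.18, was that of the 15 small subunit genes with a counterpart. The lowest, 0.11, was that of the 9 small subunit genes specific to mitochondria. The differences between these medians and between these shares were not tested, and the scanner error of a single gene does not measure the spread of a median.

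**Figure D2:**
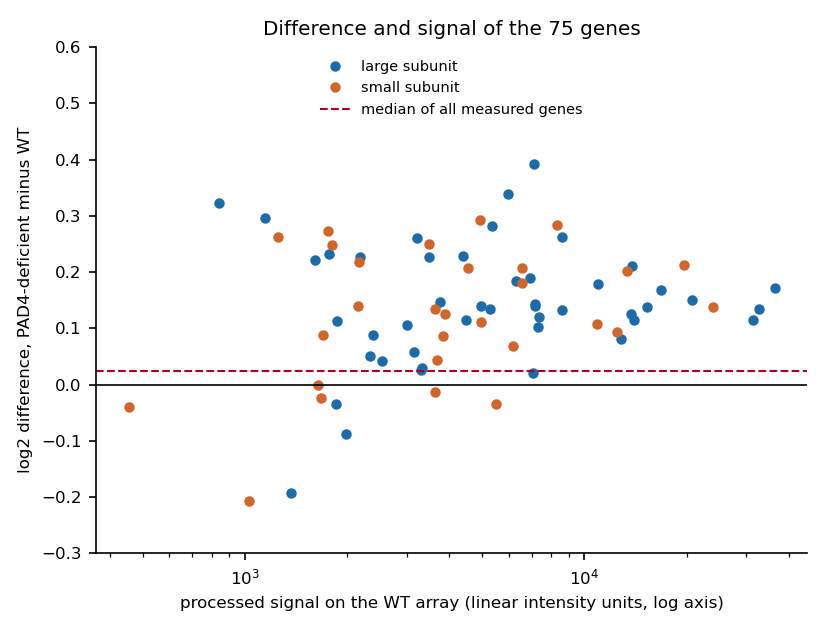
Log2 difference between the PAD4-deficient and the WT array (y axis) against the processed signal on the WT array (x axis, log scale) for the 75 genes, coloured by subunit; the dashed line is the median of all measured genes, 0.02. The brightest member below 0 is Mrps5, with a WT signal of 5481, and all brighter members lie above 0.

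The members were bright, so they were also set beside genes of like signal. When all measured genes were divided into 4 groups of equal size by signal, 52 members fell into the brightest group, 22 into the next and 1 into the one after it. In the brightest group, 50 of 52 members were above 0 (96.2%) with a median of 0.14, against 55.7% of all genes of that group with a median of 0.02. In the next group, 16 of 22 were above 0 (72.7%) with a median of 0.11, against 52.2% of all genes of that group with a median of 0.01. The SD in the brightest group was 0.09 for the members and 0.18 for all genes. With a loess correction of the difference on intensity, the median of the members was 0.13 and that of all genes 0.01.

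Several genes were read by more than 1 probe, which shows the spread within the arrays but not between mice. Of the 75 genes, 29 had 2 or more measured probes. The second brightest probe was above 0 in 23 of the 29 (79.3%), against 51.4% of all 5877 genes with 2 or more measured probes, and its median was 0.12, against 0.01. All measured probes shared a sign in 16 of the 29, and in each of these 16 the sign was positive. The same share over all genes was not computed, so this count does not set the members apart. The spread between the probes of a gene had a median of 0.13, about as large as the median difference of the family.

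Mrpl3 was the only member whose probes differed by more than 0.5. Its brightest probe had signals of 13073 on the PAD4-deficient and 12798 on the WT array, a difference of 0.08. Its dimmest probe had signals of 34.35 on the PAD4-deficient and 21.98 on the WT array and gave 0.69 with an error of 0.37. The remaining probes gave 0.17 and -0.19. By contrast, the 3 probes of Mrpl40, a mitochondria-specific protein, gave 0.18 to 0.32, the 3 of Mrpl1 0.18 to 0.31, and the 3 of Mrpl18 0.13 to 0.21. A pair of the Mrpl40 probes and a pair of the Mrpl18 probes overlap in the genome. Each such pair reads partly the same bases.

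**Figure D3:**
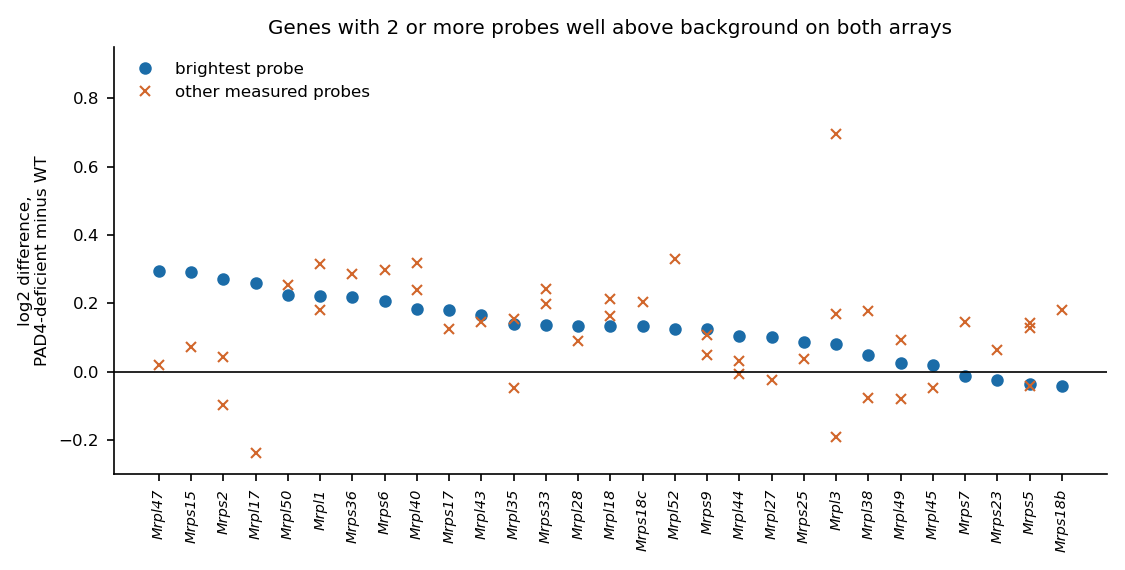
Log2 difference between the PAD4-deficient and the WT array (y axis) for every measured probe of the 29 genes with 2 or more measured probes (x axis), with the brightest probe as a circle and the others as crosses. The brightest probe is above 0 in most genes, and the other probes of Mrpl3 range from -0.19 to 0.69.

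A few chosen probes span more than 60 bases of the genome, more than the length of the probe itself. Of these 14 genes, 9 were above 0 and 5 below, with a median of 0.08. Of the 61 genes with a probe within 60 bases, 57 were above 0 and 4 below, with a median of 0.14. Over all measured genes the share above 0 was 56.1% with spanning probes and 54.9% with the others. Among the genes in the brightest of the 4 signal groups, it was 67.6% with spanning probes, with a median of 0.07, and 54.2% with the others, with a median of 0.02, the opposite order to that of the members. This split was made after the values were seen.

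Some members share a promoter region with another gene, and the share of all genes that do so was not computed. Of the 66 members in the promoter table, 23 had a protein-coding partner that starts within 1000 bases on the opposite strand and is read away from the member. Only 1 such pair joined 2 members: Mrpl46 and Mrps11 start 42 bases apart. Mrpl46 had signals of 2521 on the PAD4-deficient and 2534 on the WT array and Mrps11 1582 on the PAD4-deficient and 1639 on the WT array, with differences of 0.04 for Mrpl46 and -0.0007 for Mrps11. The 21 partners that are not members had a median of 0.06, while the 21 members beside them had a median of 0.13. Of these 21 partners, 13 were above 0, where 55% of all measured genes were. The partners ranged from -0.44 for Ppp1r10, beside Mrps18b, to 2.19 for Ighmbp2, beside Mrpl21, whose probe was dim with signals of 216.6 on the PAD4-deficient and 49.01 on the WT array. Beside members above 0, Hira, a histone chaperone gene beside Mrpl40, differed by -0.41, Pnpla7 beside Mrpl41 by -0.39, and Sars2, the mitochondrial seryl-tRNA synthetase beside Mrps12, by -0.21. Tcp1, a chaperonin subunit beside Mrpl18, had 0.14 against 0.13 for Mrpl18. These partners were named after their values were seen.

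Subunits of the mitochondrial ribosome that carry other names were also listed. All of the 6 listed genes were above 0, with a median of 0.15 (0.11 with the mean over probes), and none was 1.2-fold different. Gadd45gip1 had 0.24, Mrpl58 (named Ict1 on the array) 0.22, Ptcd3 0.16, Chchd1 0.14, Aurkaip1 0.05 and Dap3 0.04. A pair of further genes, added after the values were seen, gave 0.31 for Mrpl42 and 0.11 for Mrpl57. Ptcd3 had probes from -0.52 to 0.38.

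Translation factors act on the ribosome at initiation, elongation and termination. Of 14 listed genes, 13 were measured and 12 were above 0, with a median of 0.14. At least 1.2-fold higher was 1 gene (7.69%), against 12.3% of all measured genes, and 0 were lower, against 11.1%. Taco1, an activator of the translation of a respiratory chain subunit, had signals of 206.5 on the PAD4-deficient and 169.8 on the WT array, a difference of 0.33. The elongation factors Gfm1 and Tsfm had 0.23 each, although a second probe of Gfm1 gave -0.35. Tufm, another elongation factor, had 0.09, and Mtif2 and Mtif3, the initiation factors, 0.16 and 0.10. Oxa1l, which inserts the new proteins into the inner membrane, had -0.23 at its brightest probe and up to 0.09 at others, and Gfm2, a factor of ribosome recycling, 0.01.

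Assembly factors of the ribosome lay close to the median of all genes. Of 22 measured genes, 12 were above 0 (54.5%, against 55% of all measured genes), with a median of 0.03, which was -0.025 with median scaling. Spg7 had -0.30 and Mrm1, which modifies the ribosomal RNA, -0.21, although a second probe of Mrm1 gave 0.17. Afg3l2, the partner of Spg7 in a protease that matures Mrpl32, had -0.21. Gtpbp10, a GTPase of large subunit assembly, had 0.51 from a dim probe with signals of 44.6 on the PAD4-deficient and 32.4 on the WT array, and Mterf4 had 0.20 at its brightest probe and -0.19 at its second.

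The enzymes that charge mitochondrial transfer RNAs were also close to all genes. Of 22 genes, 14 were above 0 (63.6%), with a median of 0.06. Nars2 had 0.41 and Mars2 0.27, while Fars2 had -0.37 and Sars2 -0.21, each from 1 probe.

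The parts most like the mitochondrial ribosome were the respiratory chain, whose mitochondrially encoded subunits it makes, and the cytosolic ribosome, which makes its own proteins. The 80 measured nuclear genes of the respiratory chain and ATP synthase had a median of 0.15, with 71 above 0 (88.8%). Of these genes, 4 (5%) were at least 1.2-fold higher, against 12.3% of all measured genes, and 0 lower, against 11.1%. Sdha had 0.30, with another probe at -0.14, and Atp5g1 0.29 at the top and Cox6a2 -0.22 and Uqcrc1 -0.20 at the bottom. The 83 cytosolic ribosomal protein genes had a median of 0.10, with 76 above 0 (91.6%). That median was 0.025 with quantile normalization and 0.046 with loess, where the median of the members was 0.14 with quantile normalization and 0.13 with loess. Their extremes were Rpl39l at 0.96 and Rps4l at 0.33, and Rpl3l at -0.71 and Rpl21 at -0.21, with 0.02 at its second probe; Rpl39l and Rpl3l had dim probes, and copies of such genes can share signal. The differences between these families and the mitochondrial ribosome were not tested, and their medians above all genes were 0.12 for the respiratory chain, 0.07 for the cytosolic ribosome and 0.11 for the members. The probes on mitochondrial DNA, for products of the mitochondrial ribosome, lay near 0: CYTB had signals of 47658 on the PAD4-deficient and 51563 on the WT array, a difference of -0.06, and ND4L had -0.04.

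**Figure D4:**
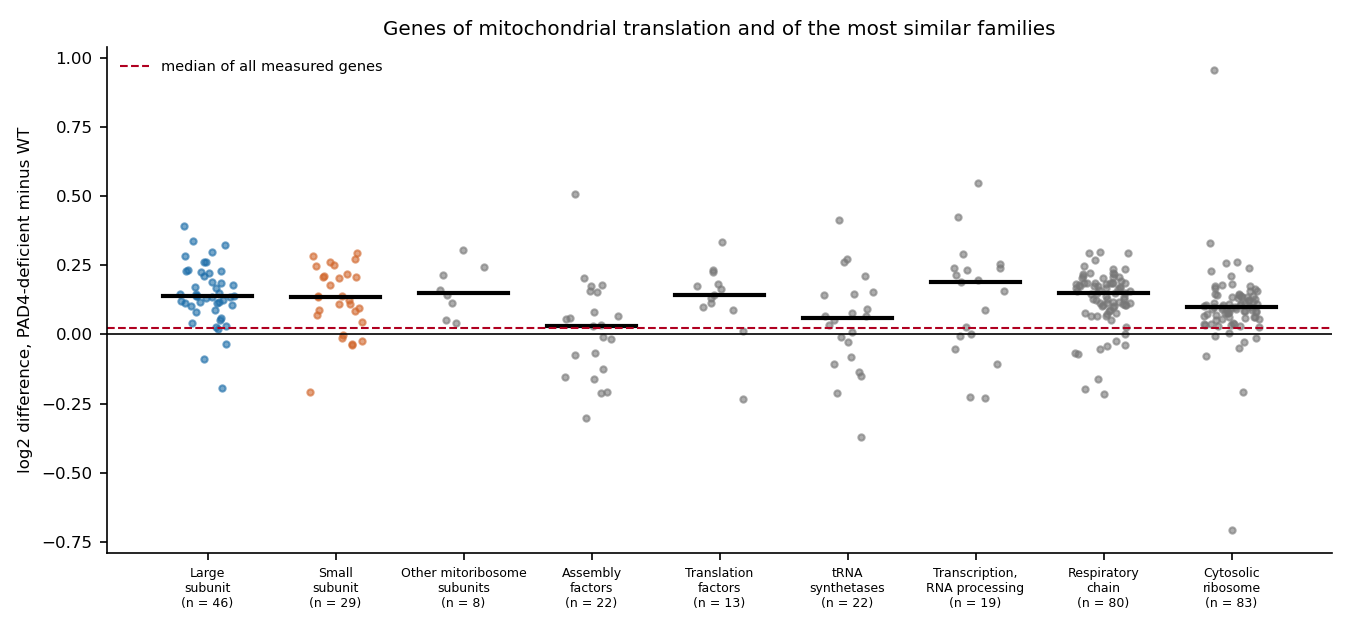
Log2 difference between the PAD4-deficient and the WT array (y axis) for single genes (points) of the 2 subunits, of other groups of mitochondrial translation and of the respiratory chain and cytosolic ribosome (x axis), with n measured genes; the other subunits include Mrpl42 and Mrpl57. Bars are medians, from 0.03 (assembly factors) to 0.19 (transcription and RNA processing), and the dashed line is the median of all measured genes.

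The arrays also differed in other ways that move with the genotype. Padi4 had signals of 2670 on the PAD4-deficient and 12879 on the WT array, and Myc, a transcription factor of growth, had 10138 on the PAD4-deficient and 5751 on the WT array, a difference of 0.87. Ddx3y, a Y-linked gene, had signals of 1297 on the PAD4-deficient and 3455 on the WT array, while Xist passed the background call for PAD4-deficient cells alone. Of the 6 genes listed for the LSK gate and its subsets, Kit differed by 0.07, Ly6a (Sca-1) by -0.14, Ptprc by -0.06 and Cd34 by -0.10. Flt3, a marker of multipotent progenitors, had signals of 1481 on the PAD4-deficient and 2439 on the WT array, a difference of -0.67, and Slamf1, a marker of stem cells, had 125.4 on the PAD4-deficient and 93.89 on the WT array, a difference of 0.47. The summed signal of all 6 was 110122 on the PAD4-deficient and 121792 on the WT array. Most of it came from Cd34, with 85480 on the PAD4-deficient and 95103 on the WT array. Of the 10 lineage markers, 9 had a probe and 6 were measured, 5 of them higher on the PAD4-deficient array, and the summed signal of all 9 was 907.3 on the PAD4-deficient and 669.2 on the WT array. Cd3g was well above background on neither array, and Cd8a on the PAD4-deficient array only. Of 5 markers of other marrow cells, Cdh5, Col1a1 and Lepr were well above background on neither array, and the summed signal of all 5 was 586.6 on the PAD4-deficient and 784.9 on the WT array. Their part in the differences of the ribosomal protein genes was not tested. In sorted cells measured in bulk, a change in the mix of cells and a change in RNA per cell cannot be told apart.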

How the data were processed

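RNA of LSK cells was measured on 1-colour Agilent arrays, 1 per genotype, with the same slide and scan in the file headers. Per the file headers, the authors read the spots with Feature Extraction 9.5.3.1 on design 014868, with probe positions on mm8, and the deposited scanner files hold linear intensity after subtraction of a fitted background and detrending. The deposited value table is log2 of that signal minus a constant per array, 9.62 for PAD4-deficient and 9.67 for WT, checked on 40925 probes. Its column medians were -3.53 and -3.59.

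From these files, log2 of the processed signal minus the 75th percentile of each array was computed for 41170 probes, after 182 flagged spots were left out. Probes were named by RefSeq accession (24264), symbol (6284), synonym (2426) or the name in the files (8072), and 124 member probes by the rule on names. Motifs were searched on both strands. With 1 array per group no test was possible, and the number of arrays limits the precision. Folds of 1.2 and 1.5 were counted. Named genes were the 8 largest differences in each direction, the 5 brightest and 5 dimmest members, members with probes over 0.5 apart, and the extremes of each other list. Further genes in the text were picked with their values known. The members and lists were chosen with earlier results of these data known. Alternatives were normexp (offset 50), quantile, median and loess (window 0.3) scaling, the percentile of measured probes, the value table, the mean over probes and looser filters. The level of 1 marker gene is not reported here. The steps were tested on simulated data. Python 3.11.15, numpy 2.4.6, pandas 2.3.3, statsmodels 0.14.6 and limma 3.58.1 in R 4.3.3 were used.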

Additional observations from a re-analysis of the deposited data

How the results depend on the processing

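No paired analysis was possible because a genotype was measured on a single array, and no replicate could be left out. The median of the mitochondrial ribosomal protein genes stayed above 0 under all alternatives run, between 0.08 and 0.15. Median scaling moved every gene by -0.056 alike, which gives its values: 0.081 for all members, 0.083 for the large and 0.078 for the small subunit, 0.093 for respiratory chain, 0.042 for cytosolic ribosome, 0.0028 for tRNA synthetase and -0.025 for assembly genes, with 3 members past 1.2-fold on the higher side and 1 on the lower. It left 60 of 75 members above 0 and 43.6% of all genes. With the mean over probes, 5 members were at least 1.2-fold higher, and the medians were 0.091 for mitochondrial transcription and RNA processing and 0.032 for the regulators, which turned sign. The shares of all genes past 1.2-fold under median scaling and with the mean over probes are not given. The counts of members past 1.2-fold at these settings therefore cannot be set against the array. The cytosolic ribosome median was 0.025 with quantile normalization and 0.046 with loess; the cause was not tested. The offset of the members over all genes was 0.10 with normexp and 0.07 with no filter on signal, where dim genes enter the median of all genes. At 2-fold there were 0 members, and no member lies on a sex chromosome. Alternatives added after the values were seen, with Mrpl42 and Mrpl57 or only members with several probes, gave 0.14 and 0.13. Signal over background limits the dim second probes.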

Other observations

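Genes that transcribe mitochondrial DNA and process its RNA had a median difference of 0.19 over 19 measured genes, but 0.091 with the mean over probes. Of the 19, 14 were above 0 (73.7%) and 3 at least 1.2-fold higher (15.8%, against 12.3% of all measured genes). The largest positive differences were in genes of RNA binding, elongation and decay. Fastkd1, an RNA-binding protein of mitochondria, had signals of 313.7 on the PAD4-deficient and 222.5 on the WT array, a difference of 0.55, Tefm, an elongation factor of transcription, had 0.43 and Pnpt1, an RNA-degrading enzyme, 0.29, each at the brightest probe. Below 0 were Polrmt, Tfam, Elac2, Mtpap and Fastk. Polrmt, the mitochondrial RNA polymerase, had signals of 2031 on the PAD4-deficient and 2459 on the WT array, a difference of -0.23. Tfam, which packs and transcribes mitochondrial DNA, had 11314 on the PAD4-deficient and 13736 on the WT array, a difference of -0.23 at its brightest probe and up to 0.08 at others.

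Among 10 regulators of nuclear genes for mitochondria the median was -0.02, with 4 above 0, and 0.032 with the mean over probes. Of the factors whose motifs were searched in the promoters, 4 had brightest probes below 0: Gabpa had -0.02, Gabpb1 -0.01, Yy1 -0.04 and Nrf1 -0.11, each within an error of about 0.20. Other probes reached 0.11 for Gabpa and 0.22 for Gabpb1. Those of Yy1 ran from -0.27 to 0.16, and Nrf1 had -0.25 at its other probe. Pprc1, a coactivator, had 0.24, and Ppargc1a, another coactivator, -0.41 from a dim probe. Myc, whose E-box was also searched, had 0.87 and was the only gene of the list that differed by 1.5-fold. Its probes ranged from 0.24 to 0.99.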
